A study of Homo sapiens with 2 samples.

Results

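D cyclins, their kinase partners CDK4 and CDK6, the inhibitors of these kinases and the retinoblastoma gene RB1 make up the switch that lets a cell pass from G1 into DNA replication. The group was taken by gene symbol and holds 10 genes (CCND1, CCND2, CCND3, CDK4, CDK6, CDKN1B, CDKN2A, CDKN2B, CDKN2C and RB1) of 19927 in the count table. Each was followed in Huh7 cells, an established human hepatocellular carcinoma line. A culture with a short hairpin RNA that targets PPIL1 (labelled PPIL1 knockdown, called shPPIL1 here) was compared with a culture carrying a control hairpin (titled shControl, with the genotype label WT). Each group is 1 library of polyadenylated RNA, so no difference below has a replicate check and no p-value is given. The knockdown group rests on 1 hairpin, so loss of PPIL1 and other effects of that hairpin cannot be told apart. Whether the cultures were pools or clones, and how long after hairpin delivery they were taken, is not given in the sources used here.

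In a cell that receives growth signals, D cyclins accumulate and bind CDK4 or CDK6, and the complex phosphorylates the RB1 protein. Phosphorylated RB1 releases E2F transcription factors, which switch on cyclin E and the replication genes. INK4 proteins (from CDKN2A, CDKN2B and CDKN2C) bind CDK4 and CDK6 directly and block them, whereas p27 (from CDKN1B) holds cyclin E complexes of CDK2 in check and can sit on cyclin D complexes as well. In liver cancers the RB1 branch is often bypassed through loss or silencing of CDKN2A or gain of CCND1. PPIL1 belongs to the cyclophilins, a family of prolyl isomerases, and works in the spliceosome.

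The shPPIL1 library held 41165401 counted reads and the shControl library 41015345. PPIL1, the targeted gene, had 104 reads in shPPIL1 and 1505 in shControl. That left 6.79% of the control level (95% counting interval 5.51 to 8.29%), in the direction of the labels. All 10 hepatocyte markers looked up were kept, with 447153 reads of AFP in shPPIL1 and 440798 in shControl. Of the markers of other cell types, 2 of 5 for fibroblasts, 1 of 4 for endothelium and 2 of 4 for leukocytes were kept, the highest being CD68 at 1249 reads in shPPIL1 and 1333 in shControl. The fibroblast marker COL3A1 had 48 reads in shPPIL1 and 16 in shControl, a ratio of 2.95 (1.64 to 5.56). It reached 1 CPM in shPPIL1 alone, where it was higher, so the filter itself favours a high ratio for it. The part of COL3A1 in the results was not tested. COL1A1, the other kept fibroblast marker, had 470 reads in shPPIL1 and 415 in shControl, a ratio of 1.11 (0.973 to 1.27). PECAM1, the kept endothelial marker, had 352 reads in shPPIL1 and 410 in shControl, a ratio of 0.843 (0.729 to 0.975). COL1A2 and KDR were at 0 in both libraries, and the leukocyte marker PTPRC had 10 reads in shPPIL1 and 4 in shControl.

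Of the 10 genes, 9 reached 1 CPM (counted reads scaled to library size) in at least 1 library and were kept, as were 12540 genes in all. The exception was CCND2. Each ratio below is shPPIL1 over shControl after scaling of the library sizes, and the interval beside it is an exact 95% Clopper-Pearson interval that covers counting error only. In shPPIL1, 2 of the 9 kept genes were higher with an interval excluding 1, against 24.6% of all genes kept. In the other direction 5 of the 9 were lower, against 26.4% of all genes kept. The remaining 2 had intervals that included 1. Among the 5 lower genes, the call of CDK4 depends on how the library sizes were scaled, as described below. By size, 1 of the 9 lay past 1.5-fold (CDKN2C, higher), where 2.02% of all genes kept were past 1.5-fold higher and 2.22% past 1.5-fold lower. At 1.2-fold 4 of the 9 were past the threshold in either direction (CDKN1B, CDKN2A, CDKN2B and CDKN2C), against 17.8% of all genes kept. None of the 9 reached 2-fold in either direction, as 1.04% of all genes kept did. The median log2 ratio of the 9 genes was -0.05, beside 0 over all genes kept, and the middle 50% of all genes kept ran from -0.13 to 0.12. Of the 9, 4 lay inside that middle range.

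**Figure D1:**
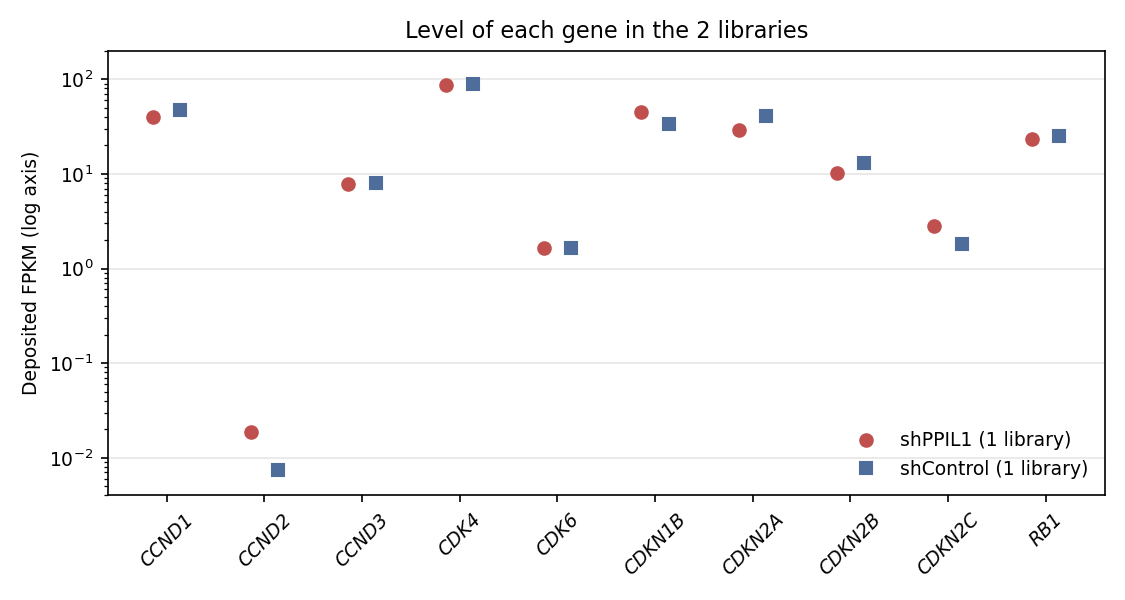
Deposited FPKM of each of the 10 genes on a log axis, with shPPIL1 as circles on the left and shControl as squares on the right of each pair, 1 library each. CDK4 was at the top with 87.3 FPKM in shPPIL1 and 89.1 FPKM in shControl, and CCND2 at the bottom with 0.0187 and 0.00751 FPKM in the same libraries.

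Among the D cyclins, CCND1 supplied most of the transcript and was the member with lower expression in the knockdown library. CCND1 encodes cyclin D1 and lies on chromosome 11 from 69641156 to 69654474 (GRCh38). It had 7039 reads in shPPIL1 and 8196 in shControl, or 40.3 FPKM in shPPIL1 and 47.2 FPKM in shControl. The ratio was 0.844 (0.817 to 0.871), a log2 ratio of -0.25. Of all genes kept, 12.5% had a ratio at least as low, so the difference was larger than counting error while many genes differed as much. Part of CCND1 overlaps an exon of LTO1 on the opposite strand (497 bases, 10.3% of the CCND1 exons), and the strand setting of the counting is not given. LTO1 had 695 reads in shPPIL1 and 769 in shControl.

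CCND3, which encodes cyclin D3 (chromosome 6, 41934933 to 42050035), had 607 reads in shPPIL1 and 612 in shControl. These were 7.86 FPKM in shPPIL1 and 7.95 FPKM in shControl, a ratio of 0.974 (0.870 to 1.09). A difference in CCND3 was not detectable at this depth. CCND2, which encodes cyclin D2 (chromosome 12, 4273762 to 4305353), was almost absent, with 5 reads in shPPIL1 and 2 in shControl. Its ratio of 2.46 had an interval from 0.402 to 25.8 and carries no direction. On the FPKM scale CCND1 made up 83.66% of the summed D cyclin level in shPPIL1 and 85.55% in shControl, and CCND3 made up 16.30% in shPPIL1 and 14.43% in shControl. Together the D cyclins came to 48.2 FPKM in shPPIL1 and 55.1 FPKM in shControl.

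The kinase genes stood far apart in level and close together in ratio. CDK4 (chromosome 12, 57747727 to 57752310), which encodes a catalytic partner of the D cyclins, had 6705 reads in shPPIL1 and 6818 in shControl. Its level was 87.3 FPKM in shPPIL1 and 89.1 FPKM in shControl, above 93.5% of all genes kept in the control library. The ratio was 0.966 (0.934 to 0.999). The upper bound was 1.00 with DESeq2 size factors and 1.01 with library totals alone, and the interval included 1 under both, so whether CDK4 was lower at all depends on the scaling. CDK4 also overlaps exons of TSPAN31 on the opposite strand over 1369 bases, 43.2% of its exons. TSPAN31 had 1103 reads in shPPIL1 and 1022 in shControl.

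CDK6 (chromosome 7, 92604921 to 92836573) encodes the other D cyclin kinase. It had 800 reads in shPPIL1 and 780 in shControl, or 1.66 FPKM in shPPIL1 and 1.63 FPKM in shControl, with a ratio of 1.01 (0.912 to 1.11). On the FPKM scale CDK4 exceeded CDK6 by 52.5 times in shPPIL1 and 54.7 times in shControl. The long CDK6 transcript narrows that gap in raw reads, since the deposited FPKM correspond to a length of 11680 bases for CDK6 and 1865 bases for CDK4.

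The inhibitor genes differed most between the libraries, and not in the same direction. CDKN1B, which encodes p27 (chromosome 12, 12717368 to 12722369), had 4451 reads in shPPIL1 and 3321 in shControl. Its level was 44.8 FPKM in shPPIL1 and 33.6 FPKM in shControl, a ratio of 1.32 (1.26 to 1.38) and a log2 ratio of 0.40. Of all genes kept, 4.83% had a ratio at least as high. With this difference the order of the genes by FPKM also differed. In shPPIL1 CDKN1B stood directly below CDK4, with CCND1 and CDKN2A after it. In shControl CDKN1B came after CDK4, CCND1 (47.2 FPKM) and CDKN2A (41.1 FPKM).

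CDKN2C encodes the INK4 protein p18 (chromosome 1, 50960745 to 50974634) and had the highest ratio of the 9 kept genes, though CDKN1B had the higher lower bound. It had 176 reads in shPPIL1 and 114 in shControl, or 2.78 FPKM in shPPIL1 and 1.81 FPKM in shControl. The ratio was 1.52 (1.19 to 1.94), and 1.91% of all genes kept had a ratio at least as high. With few reads the interval was the widest among the kept members, and it reached well below 1.5-fold.

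CDKN2A and CDKN2B, INK4 genes that lie side by side on chromosome 9, were both lower in the knockdown library. CDKN2A (21967752 to 21995324) encodes p16 from one start and, from another start and in another reading frame, the p53 regulator ARF. Its counts cannot be divided between these products. It had 1308 reads in shPPIL1 and 1837 in shControl, or 29.1 FPKM in shPPIL1 and 41.1 FPKM in shControl. The ratio was 0.700 (0.651 to 0.751), and 3.13% of all genes kept had a ratio at least as low. CDKN2B (22002903 to 22009313) encodes p15, which is known as a target of TGF-beta signalling. It had 1631 reads in shPPIL1 and 2099 in shControl, or 10.1 FPKM in shPPIL1 and 13.1 FPKM in shControl. The ratio was 0.763 (0.715 to 0.815), and 5.34% of all genes kept had a ratio at least as low. CDKN2A overlaps the antisense gene CDKN2B-AS1 over 341 exon bases, 7.88% of its exons. CDKN2B-AS1 was not analysed here. Summed over CDKN2A, CDKN2B and CDKN2C, the INK4 level was 42.0 FPKM in shPPIL1 and 55.9 FPKM in shControl.

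RB1, the pocket protein gene on which these kinases act (chromosome 13, 48303751 to 48481890), had 3993 reads in shPPIL1 and 4203 in shControl. Its level was 23.5 FPKM in shPPIL1 and 24.9 FPKM in shControl, a ratio of 0.933 (0.894 to 0.975). Of all genes kept, 29.5% had a ratio at least as low.

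**Figure D2:**
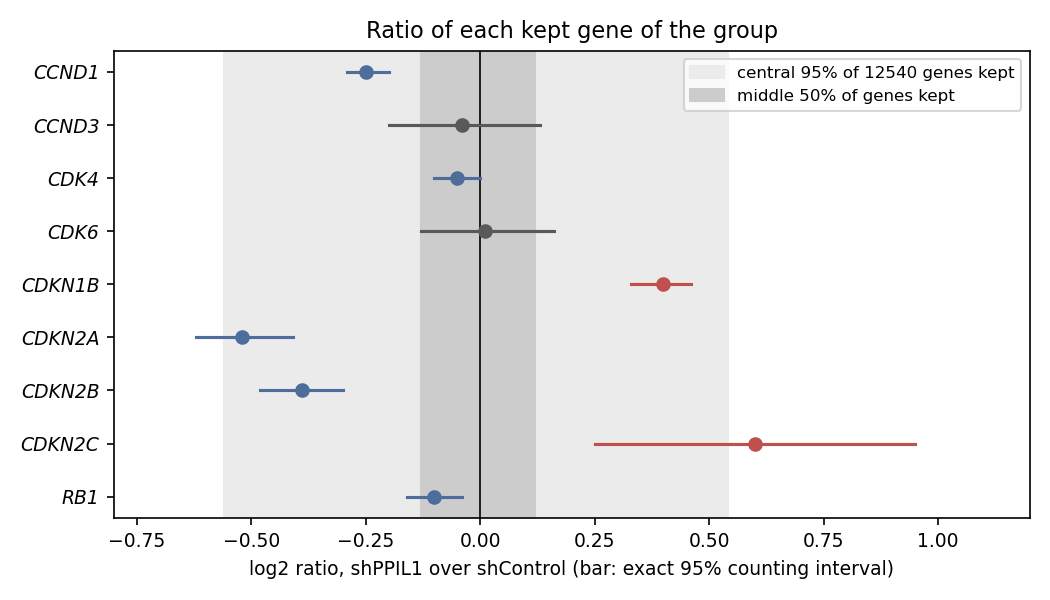
Log2 ratio of shPPIL1 over shControl for the 9 kept genes, with exact 95% counting intervals as bars, and with the middle 50% and the central 95% of all genes kept as grey bands. CDKN1B (0.40) and CDKN2C (0.60) lay to the right, CDKN2A (-0.52), CDKN2B (-0.39) and CCND1 (-0.25) to the left, and of the 9 points only that of CDKN2C lay outside the central band of -0.56 to 0.54.

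Pairs of related genes were also compared within each library, which removes the library scaling. The reads of 2 genes in 2 libraries give an exact conditional odds ratio, and 7 pairs were compared within the D cyclins, the kinases and the INK4 genes. Of these, 3 had an interval excluding 1. The share over other gene pairs was not computed, so this count has no background beside it. Among single genes kept, 24.6% were higher and 26.4% lower by their own intervals. The pairs with CDKN2C use the same CDKN2C reads (176 in shPPIL1 and 114 in shControl) and are not separate results. CCND3 gained on CCND1 by 1.15 times (1.03 to 1.30) in shPPIL1 relative to shControl. CDKN2C gained on CDKN2A by 2.17 times (1.68 to 2.80) and on CDKN2B by 1.99 times (1.55 to 2.56). For CDKN2A over its neighbour CDKN2B the odds ratio was 0.916 (0.831 to 1.01), and for CDK6 over CDK4 it was 1.04 (0.938 to 1.16), both with intervals that included 1. Both pairs with CCND2 had intervals that ran from below 0.5 to above 25 and give no direction. One further pair was chosen after its values were seen. CDKN1B stood at 1.11 times the FPKM of CCND1 in shPPIL1 and at 0.712 times in shControl, an odds ratio of 1.56 (1.48 to 1.65).

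**Figure D3:**
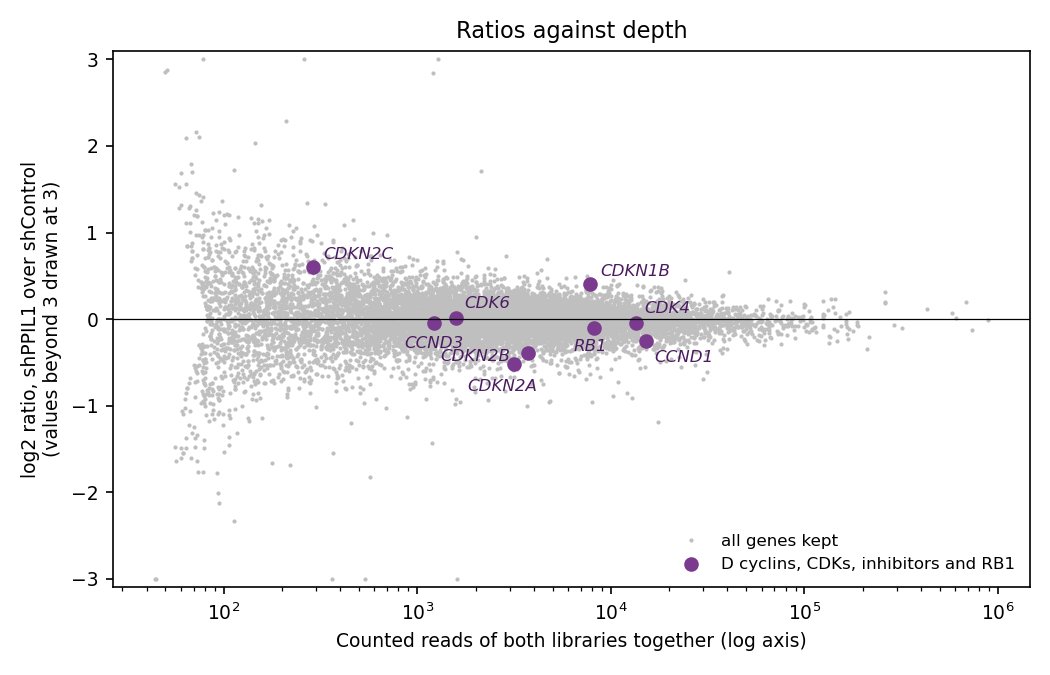
Log2 ratio of shPPIL1 over shControl against the counted reads of both libraries together on a log axis, for all 12540 genes kept (grey) and the 9 kept genes of the group (purple). CDKN2C sat at low depth, where the grey cloud is wide, while CDKN1B, CDKN2A and CDKN2B sat at depths where most genes lie closer to 0.

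Sequence upstream of the genes that differed is shown because CDKN2A and CDKN2B lie next to each other and were lower together, while CDKN2C, of the same family, was higher. RefSeq (GRCh38.p14) gave 14 start windows for 8 of the 10 genes, each holding 250 bases before a start. Part of this sequence lies in annotated exons. All 250 bases lie outside exons for the distal CDKN2A start and for CDKN2C at 50960745. Only 9 do so for the proximal CDKN2A start, and 0 for CDKN2C at 50968706 and at 50970245. The CDKN2A, CDKN2B and CDKN2C stretches printed below leave exon bases out, so that of CDKN2B has 192 bases. CCND1 and CCND2 had no entry, and the only entry of RB1 is at an internal start, at 48476450. The stretch before the distal CDKN2A start, from which ARF is transcribed, is chr9:21995325-21995574 on the minus strand. The stretch of CDKN2B is chr9:22009364-22009555 on the minus strand, and that before the first CDKN2C start is chr1:50960495-50960744 on the plus strand. Capitals mark matches to the motifs searched.
CDKN2A: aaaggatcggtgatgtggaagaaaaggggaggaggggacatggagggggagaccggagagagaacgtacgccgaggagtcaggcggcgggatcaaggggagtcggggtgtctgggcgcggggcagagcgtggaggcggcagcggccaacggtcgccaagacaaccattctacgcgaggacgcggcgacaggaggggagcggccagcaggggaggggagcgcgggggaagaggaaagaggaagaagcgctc
CDKN2B: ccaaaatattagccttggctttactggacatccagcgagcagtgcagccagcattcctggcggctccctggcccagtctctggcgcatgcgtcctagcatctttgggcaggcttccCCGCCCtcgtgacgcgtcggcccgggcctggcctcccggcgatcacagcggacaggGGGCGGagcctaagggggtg
CDKN2C: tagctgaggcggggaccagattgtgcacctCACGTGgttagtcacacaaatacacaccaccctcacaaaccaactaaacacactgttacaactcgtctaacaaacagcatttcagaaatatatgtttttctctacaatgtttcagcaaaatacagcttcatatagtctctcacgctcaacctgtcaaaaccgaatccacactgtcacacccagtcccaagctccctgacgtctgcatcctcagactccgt

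The motifs searched, on both strands, were the E-box CACGTG, the CCAAT box, the GC box GGGCGG, the AP-1 site TGANTCA, the CRE TGACGTCA and 2 forms of the E2F site, TTTCGCGC and TTTGGCGC. CDKN2B held 2 GC boxes, and 42.6% of all 35116 windows of this length held at least 1. CDKN2C held 1 E-box before its first start, as 6.34% of all windows did. Its window before the second start held 5 GC boxes, and that before the third start held 1 E-box, 1 CCAAT box and 1 GC box. The distal CDKN2A stretch held none of the motifs. The window before the proximal CDKN2A start, from which p16 is transcribed, held 1 GC box. None of the windows of these genes held the CRE or either E2F form, which are found in 1.65%, 0.439% and 0.550% of all windows. Matches in exon sequence were counted as well. A match of letters does not show that a factor binds there.

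CDK4 and CDKN1B are shown for comparison, because CDK4 is a textbook target of MYC and MYC was among the lower genes described further on, and because CDKN1B was higher. The CDK4 window held 3 E-boxes, each given with the bases beside it, on the minus strand of chromosome 12.
CDK4 at chr12:57752511-57752536: gtcaagcggtCACGTGtgatagcaac
CDK4 at chr12:57752491-57752516: agcaacagatCACGTGgctgccatcg
CDK4 at chr12:57752396-57752421: gggtggcggtCACGTGcccagaacgt
CDKN1B at chr12:12717184-12717208: acgcgaccagCCAATctcccggcgg
CDKN1B at chr12:12717308-12717332: gccgccgcaaCCAATggatctcctc
The CDKN1B window, on the plus strand, held 2 CCAAT boxes, and 32.0% of all windows held at least 1. At least 1 E-box was found in 6.34% of all windows. Only 39 bases of the CDK4 window and 6 of the CDKN1B window lie outside annotated exons. The sites listed here thus lie wholly or partly in exon sequence. The CDK4 interval included 1 under other scalings. The part of MYC or of these sites in the ratios of CDK4 and CDKN1B was not tested.

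A further sequence was looked up with earlier results of these data known, the 6-base motif GATCAT. Over all genes kept with a coding transcript, the 2861 genes with GATCAT in the 3' UTR of their longest coding transcript had a median log2 ratio of -0.03, and the 9252 without it 0.01. In the group, the 3' UTRs of the same kind of transcript held it in CCND2, CDK4, CDK6, CDKN2A and CDKN2B. Those of CCND1, CCND3, CDKN1B, CDKN2C and RB1 did not hold it. The 3' UTRs searched ran from 261 bases in CDKN1B to 10219 bases in CDK6, and the effect of length was not tested. The CDKN1B transcript used has 897 bases, while the deposited FPKM of CDKN1B correspond to 2411 bases. Part of the counted CDKN1B sequence was thus not searched for GATCAT. The sites in the lower INK4 genes, on the minus strand of chromosome 9, are these.
CDKN2A at chr9:21968175-21968200: gggaaacttaGATCATcagtcaccga
CDKN2B at chr9:22004613-22004638: agggttgcttGATCATtatatcattg
The carriers CDK4 and CDK6 had ratios of 0.966 and 1.01, against 0.700 for CDKN2A and 0.763 for CDKN2B. The part of the motif in these ratios was not tested.

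The counts of called genes in the related lists that follow stand against 24.6% higher and 26.4% lower over all genes kept. Of 4 other CDK inhibitors measured (CDKN1A, CDKN1C, CDKN2D and CDKN3), 2 were higher and 1 was lower with an interval excluding 1, and the median log2 ratio was 0.23. CDKN2D, which encodes the INK4 protein p19, had 368 reads in shPPIL1 and 255 in shControl, a ratio of 1.42 (1.21 to 1.67). CDKN3, a phosphatase that acts on CDK2, had a ratio of 1.09 (1.03 to 1.16). CDKN1A, which encodes the p53 target p21, had 3356 reads in shPPIL1 and 3892 in shControl, a ratio of 0.847 (0.809 to 0.887). Thus in the INK4 family CDKN2C and CDKN2D were higher and CDKN2A and CDKN2B lower.

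Downstream of the kinases, the genes of RB1 relatives, E2F and DP factors had a median log2 ratio of 0, with 2 of 12 higher and 4 of 12 lower. E2F5, a repressive E2F that works with RB1 relatives, was the gene of the list past 1.5-fold, with 439 reads in shPPIL1 and 654 in shControl and a ratio of 0.659 (0.583 to 0.745). E2F6, a repressor that does not bind pocket proteins, had a ratio of 0.784 (0.726 to 0.847). The atypical repressor E2F7 had a ratio of 1.27 (1.15 to 1.40) and the activator E2F3 1.12 (1.05 to 1.21). E2F1, the best known activator of the family, had 2329 reads in shPPIL1 and 2202 in shControl, a ratio of 1.04 (0.980 to 1.10).

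Cyclin E, CDK2 and the genes that activate CDKs had 3 of 8 higher and 1 of 8 lower, with a median log2 ratio of 0.09. CDC25A, the phosphatase that activates CDK2, had 3257 reads in shPPIL1 and 2464 in shControl, a ratio of 1.30 (1.23 to 1.37). CDK2 had a ratio of 1.11 (1.05 to 1.17) and CCNE1, which encodes cyclin E1, 1.17 (1.02 to 1.35). CDC37, the chaperone partner that loads CDK4 onto HSP90, was the lower one at 0.895 (0.864 to 0.927). Of 13 replication genes driven by E2F, 7 were lower and 3 higher, beside 26.4% lower and 24.6% higher over all genes kept, with a median log2 ratio of -0.04 and no gene past 1.5-fold. Among the lower ones, MCM4 and PCNA had upper bounds of 0.998 and 0.999. As for CDK4, whether these 2 genes were lower depends on the scaling, since library totals alone raise each log2 ratio by 0.02. The replication licensing genes CDC6 (0.830, 0.797 to 0.864) and MCM6 (0.838, 0.822 to 0.855) were the lowest by their bounds, and the nucleotide genes TK1 (1.15, 1.09 to 1.21) and RRM2 (1.03, 1.01 to 1.06) the highest. The MuvB core represses cell cycle genes in resting cells and, with MYBL2 and FOXM1, activates later ones, and of this list 2 of 7 were higher and 3 of 7 lower. Among them LIN37 (1.28, 1.13 to 1.46) and LIN52 (1.16, 1.06 to 1.26) were higher and LIN9 (0.779, 0.714 to 0.850) and FOXM1 (0.924, 0.884 to 0.965) lower. The proliferation marker MKI67 had a ratio of 1.03 (1.01 to 1.06) and the mitotic cyclin gene CCNB1 0.887 (0.860 to 0.914).

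Genes that act on the stability of D cyclins and p27 had 3 of 16 higher and 6 of 16 lower, beside 24.6% and 26.4% over all genes kept, with a median log2 ratio of 0.01 and no gene past 1.5-fold. SKP2, the F-box protein that directs p27 to degradation, had 8928 reads in shPPIL1 and 7017 in shControl, a ratio of 1.25 (1.21 to 1.29). Its transcript was thus higher in the same library as that of CDKN1B. DYRK1A, a kinase that phosphorylates cyclin D1, had a ratio of 1.11 (1.06 to 1.17). CUL4A, a scaffold of the ligase that degrades D cyclins, had a ratio of 0.828 (0.797 to 0.861) and FBXO4, an F-box protein reported to act on cyclin D1, 0.789 (0.699 to 0.889).

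Among the genes that induce D cyclins, 2 of 9 kept were higher and 5 of 9 lower, beside 24.6% and 26.4% over all genes kept, with a median log2 ratio of -0.12. MYC, a transcription factor of growth, had 4133 reads in shPPIL1 and 6726 in shControl, a ratio of 0.604 (0.581 to 0.628), and was the gene of the list past 1.5-fold. CTNNB1, which encodes beta-catenin, had a ratio of 0.910 (0.894 to 0.926). STAT3 had a ratio of 1.15 (1.12 to 1.18) and LEF1, a nuclear partner of beta-catenin, 1.26 (1.02 to 1.55).

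Of 7 genes that neighbour CDKN2A and CDKN2B on the short arm of chromosome 9, 4 were kept, of which 2 were lower, 2 had intervals including 1 and 0 were higher. MTAP, the methylthioadenosine phosphorylase gene that is often deleted together with CDKN2A in tumours, had 1497 reads in shPPIL1 and 1723 in shControl, a ratio of 0.854 (0.796 to 0.915). Reads of MTAP, CDKN2A and CDKN2B were thus plentiful in both libraries. DMRTA1 had 16 reads in shPPIL1 and 44 in shControl, a ratio of 0.357 (0.188 to 0.646). It reached 1 CPM in shControl alone, where it was higher, so the filter itself favours a low ratio for it. The median log2 ratio of the 4 genes was -0.18, and it was -0.13 with a filter of 5 CPM, which removes DMRTA1.

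**Figure D4:**
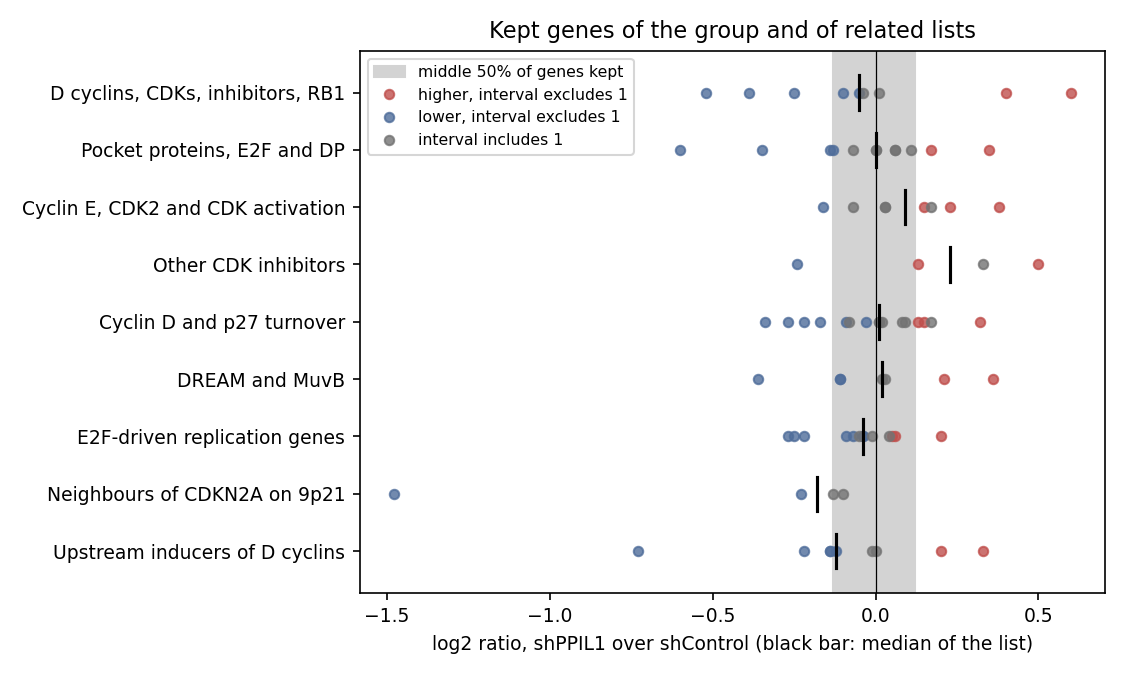
Log2 ratio of shPPIL1 over shControl for each kept gene of the group and of 8 related lists, with red for genes higher and blue for genes lower with an interval excluding 1, grey for the rest, and a black bar at each list's median. The medians lay between -0.18 (neighbours of CDKN2A) and 0.23 (other CDK inhibitors), and the group at the top spread from -0.52 (CDKN2A) to 0.60 (CDKN2C).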

How the data were processed

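For both libraries the authors deposited whole-number raw counts and, in separate files, FPKM values. The genome build is hg38 per the submitters' processing notes. No aligner, counter, annotation or strand setting is given in those sources. A further 7 columns of counts whose names fit none of the labels were left out. Library sizes were scaled by TMM (edgeR 4.0.16, R 4.3.3), and genes with at least 1 scaled CPM in at least 1 library were kept. Ratios carry exact Clopper-Pearson intervals at 95%. A gene was called higher or lower when its interval excluded 1, and past 1.5-fold when its ratio also reached that size. Reads copied by PCR are not independent molecules, so intervals cover counting error only, and with 1 library per group no test between conditions was possible. The ratio and interval steps were tested on simulated data that held counting error alone, with the library sizes given. Such data cannot test the scaling or show how far separate cultures differ. Alternatives were DESeq2 1.42.0 size factors, library totals, other filters and folds, and log2(FPKM + pseudocount).

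From each related list the text names up to 2 higher and 2 lower genes, ranked by the interval bound nearest to 1, and also MTAP, CDKN1A, E2F1, CCNE1 and CDK2. MCM4 and PCNA are named for their bounds close to 1. No genes of like pattern are named, since a pattern over 2 libraries is a single ratio. The members and lists were chosen with earlier results of these data known. The promoter motifs, the GATCAT sites and the pair of CDKN1B with CCND1 were chosen after the data were seen. Positions are from RefSeq (GRCh38.p14), exons and 3' UTRs from GENCODE release 29 on the same build. None of the 100-base windows of the members, taken every 10 bases of the longest coding transcript, matched a transcript of a gene elsewhere. That transcript has 897 bases for CDKN1B and 880 for CDKN2A, while their deposited FPKM correspond to 2411 and 1091 bases. Part of the counted sequence of these genes was thus not checked.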

Additional observations from a re-analysis of the deposited data

How the results depend on the processing

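The 40 recomputed member ratios (DESeq2 size factors, library totals, log2(FPKM + 1) and log2(FPKM + 0.1) for each of 10 genes) stayed within their counting intervals, and 0 changed the direction of a called gene. These settings are not separate checks, since the FPKM hold the same counts over library totals and gene length. Apart from the pseudocount they repeat the library totals. The CCND2 log2 ratio went from 1.3 to 0.02 with log2(FPKM + 1), inside an interval of -1.31 to 4.69. With library totals alone each log2 ratio was higher by 0.02. The CDK4 interval included 1 with DESeq2 size factors and with library totals. Calls in the related lists were not recomputed under these scalings, and those with a bound close to 1 can change in the same way. The count of members past 1.5-fold was 1. It was 0 with a filter of 5 CPM, which removes CDKN2C, 0 at 2-fold and 4 at 1.2-fold (CDKN1B, CDKN2A, CDKN2B and CDKN2C). Over all genes past 1.5-fold, the count was 532, against 1124 with no filter and 167 at 5 CPM. As a share of counted reads rather than of FPKM, CCND1 made up 92.00% of the D cyclins in shPPIL1 and 93.03% in shControl, and CCND3 7.934% in shPPIL1 and 6.947% in shControl, since the CCND1 transcript is longer. Of 32 recomputed list values (medians, or means in place of medians), 31 moved by no more than the semi-interquartile range of their genes. The exception was the mean of the chromosome 9 neighbours (-0.49), which DMRTA1 sets. No paired analysis was possible because each group has 1 library. Depth limits CCND2 and CDKN2C most.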
